A study of Mus musculus with 4 samples.

Results

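Somatostatin (Sst) interneurons were taken from single-nucleus RNA sequencing of the mouse hippocampus. A nucleus was chosen when its barcode held at least 500 genes and under 5% mitochondrial transcripts, at least 3 unique transcript molecules (UMIs) of Gad1 and Gad2 together, and at least 3 UMIs of Sst. The nuclei were thus chosen by their counts of these genes, whose values are given below as a description only. The Sst count of a nucleus also had to exceed its counts of Pvalb, Vip and Lamp5, and it could show fewer than 2 of the 6 glial genes Mobp, Mog, Prr5l, Gja1, Fgfr3 and Inpp5d. The rule returned 182 nuclei out of 55640 barcodes, or out of 3101 GABAergic nuclei, which are those that met every condition except the ones on Sst and its rivals. These 182 are called Sst nuclei here, and the remaining GABAergic nuclei serve as the comparison.

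The study compared wild-type (WT) mice with heterozygous Cyfip2+/R87C knock-in (KI) littermates. They were on the C57BL/6N background according to its methods, and at postnatal week 28 according to its results. The knock-in allele is carried in every cell and changes 1 amino acid of CYFIP2, a subunit of the WAVE complex that controls branched actin assembly. Each genotype had 2 libraries, each made from frozen hippocampi, and all 4 carried one batch label. The allele of KI replicate 2 is written as R88C in one label and was treated as the same allele.

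Sst interneurons are inhibitory neurons that arise in the medial ganglionic eminence under the transcription factors Lhx6 and Sox6. In the hippocampus they target mainly the distal dendrites of pyramidal cells, where their axons meet the excitatory inputs, and they release GABA together with the peptide somatostatin. They include cells that also make neuropeptide Y (Npy), reelin (Reln) or nitric oxide synthase (Nos1).

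The Sst gene lies on the minus strand of chromosome 16 (start 23889573, end 23890958, GRCm38). Its promoter is the textbook example of control by the cyclic AMP response element (CRE), which binds CREB. The 30 bases around that element, from the RefSeq promoter table (GRCm38.p6, chr16:23890874-23890903, minus strand, read 5′ to 3′), are shown because Sst defines these nuclei. The capitals mark the CRE.
Sst promoter: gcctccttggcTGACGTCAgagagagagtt
The first base of the element lay 48 bases before the RefSeq start of transcription. The GENCODE span given above reaches further upstream than this start, so the stretch shown lies inside it. The letters TGACGTCA, which read the same on both strands, occurred within the 250 bases upstream of 549 of 27025 genes (2.03%) and of 4 of 27 activity-induced genes, namely Dusp1, Pcsk1, Scg2 and Btg2. Of the 61 genes that passed the test between genotypes below, 45 had a promoter in the table and 1 (2.22%), Tenm3, held these letters. Among tested genes it was 197 of 4774 (4.13%).

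The Sst nuclei numbered 47 and 35 in WT replicates 1 and 2, and 52 and 48 in KI replicates 1 and 2. Pairs of values are given in this replicate order from here on. The summed UMIs of the Sst nuclei were 352628 and 293616 in WT and 587418 and 456897 in KI, so the KI sums were deeper. The median nucleus held 6648 and 7683 UMIs in WT and 8852 and 8434.5 in KI. The whole libraries held between 73009975 and 80913580 UMIs in 12665 to 16055 barcodes. No Sst barcode was shared between libraries, while 39 to 66 retained barcodes were shared per pair of libraries. With the same rule applied to their own marker, Pvalb gave 11 nuclei, Vip 66 and Lamp5 47.

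The Sst threshold decided membership for many nuclei. Of the 182 nuclei, 75 had exactly 3 Sst UMIs, 44 had 4, 53 had 5 to 9 and 10 had 10 or more. The condition on glial genes removed 11 nuclei that otherwise qualified, and no nucleus was removed by a rival marker. Sst transcripts were present at a low level in other cell types too: excitatory nuclei (at least 3 Slc17a7 UMIs, with no UMI of Gad1, Gad2 or the 6 glial genes) averaged 0.143 to 0.245 Sst UMIs per library and oligodendrocyte nuclei (at least 3 Mobp UMIs and 1 of Mog, with none of Gad1 or Gad2) 0.151 to 0.217. The Sst nuclei averaged 4.29 to 5.47, and only 4 of 2876 excitatory and 0 of 1995 oligodendrocyte nuclei reached 3. Just outside the threshold, 44 and 40 WT and 38 and 56 KI GABAergic nuclei had 2 Sst UMIs. Their Grin3a level was 429 and 462 CPM (UMIs of a gene scaled to a common library total) for WT against 380 and 632 CPM for KI, against 467 and 554 CPM for WT against 497 and 708 CPM for KI just inside it.

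The other markers of the class were present. Nxph1, a neurexin ligand of Sst and other interneurons, was detected in 96.2% to 100% of Sst nuclei per library, compared with 72% to 79.8% of other GABAergic and 9.14% to 11% of excitatory nuclei. Lhx6 was detected in 28.8% to 40.0% of Sst nuclei, in 19.4% to 23.9% of other GABAergic nuclei and in 0.1% to 0.7% of excitatory nuclei. It was thus sparse but far above the level in a cell type that lacks it. Sox6 was 2.09 times and Satb1, a maturation factor of Sst cells, 2.16 times as high as in other GABAergic nuclei. The 11 Pvalb nuclei read 464 CPM of Sox6 against 457 CPM in Sst nuclei (means of libraries). For Lhx6 the means were 65.1 CPM in Pvalb against 55.7 CPM in Sst nuclei, and for Satb1 123 against 244 CPM. Since Sst is a marker of the choice, its own 13.4-fold ratio is not a finding.

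Beyond the rule, 12 genes with at least 20 CPM in every library led the ratio of Sst to other GABAergic nuclei, which is given as a description without a test. The laminin subunit Lama4 led with a ratio of 6.47, followed by the secreted guidance cue Sema3a at 5.42 and the peptide gene Npy at 4.67. Elfn1, which sets the properties of excitatory synapses onto Sst cells, was 3.99 times as high, and Grin3a, an NMDA receptor subunit, 3.23 times as high. The others were Olfm3 (3.90), Crhbp (3.76), which binds corticotropin-releasing hormone, Gm28175 (3.72), which was as high in the 66 Vip nuclei (164 CPM against 165 CPM in Sst nuclei, means of libraries), Klf5 (3.66), Gna14 (3.60), Lypd6b (3.35) and Eya1 (3.05).

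**Figure D1:**
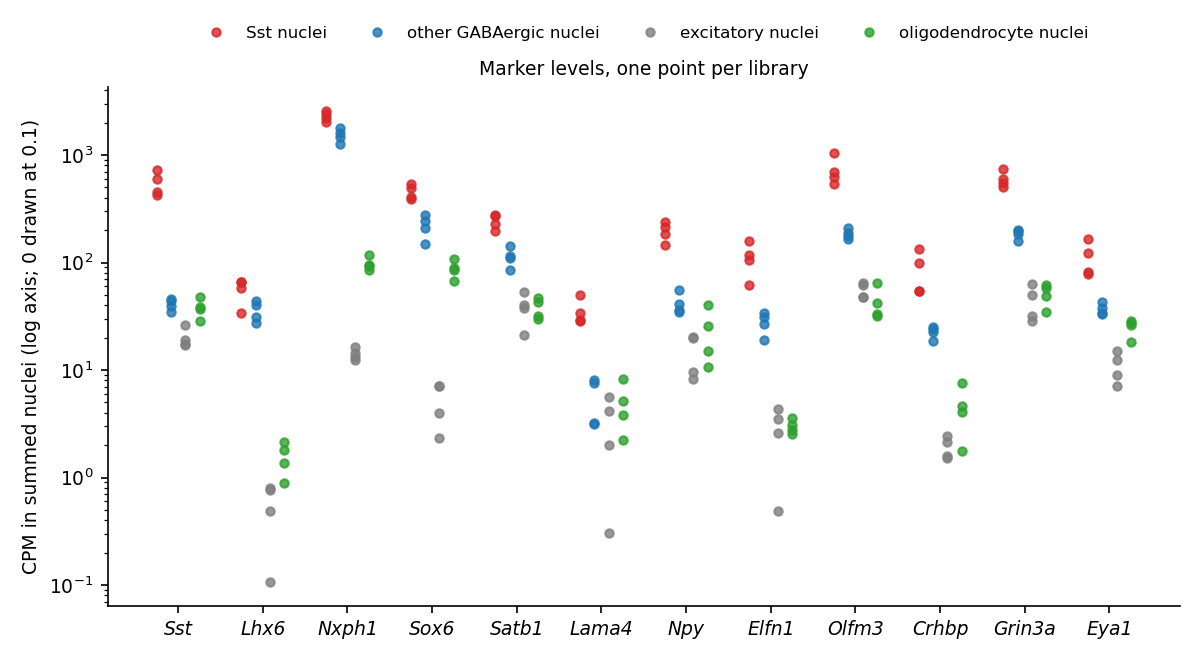
Levels of marker genes in Sst, other GABAergic, excitatory and oligodendrocyte nuclei, in CPM of the summed counts on a log axis (0 drawn at 0.1), with 1 point per library. For all genes shown except Lhx6, every Sst point lies above every point of the other GABAergic nuclei.

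The Sst nuclei were mixed in their second markers. Npy was detected in 98 nuclei and Reln in 118, both in 54 and neither in 20. Npy was found in 48.9% and 51.4% of WT and 51.9% and 62.5% of KI Sst nuclei, and in 6.7% to 17.2% of excitatory nuclei per library. Grin3a was detected in 165 nuclei, Elfn1 in 103, Crhbp in 72 and Calb1 in 66. For Calb1 this was 28.6% to 41.7% of Sst nuclei per library, against 22.5% to 34.4% of excitatory nuclei. The nitric oxide synthase gene Nos1 was seen in 20 nuclei, Chodl, which marks long-range Nos1 cells, in 6 and either in 22. Per library, Nos1 was seen in 4.26% to 18.8% of Sst nuclei. In other GABAergic nuclei it was 12.5% to 20.5%, and in excitatory nuclei 16.7% to 23.5%. These ranges overlap, so a UMI of Nos1 alone does not mark a subtype here. No nucleus held a UMI of Chrna2, a marker of some deep dendrite-targeting cells, and a count of 0 of 182 allows a share of up to 1.65% of nuclei with a UMI.

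Some of these counts differed between libraries of unequal depth, so they are given with the levels. Nos1 was found in 2 and 2 WT and 7 and 9 KI nuclei, but its level was 42.5 and 20.4 CPM for WT against 25.5 and 48.2 CPM for KI, and the groups overlapped. The substance P receptor gene Tacr1 was found in 1 and 0 WT and 8 and 8 KI nuclei, with 10 and 0 UMIs in WT and 19 and 22 in KI. Its difference missed the threshold (log2 1.48, SE 0.62, adjusted p = 0.308). Cort, which encodes the somatostatin relative cortistatin, had 11 and 6 UMIs in WT and 1 and 1 in KI, named here after its values were seen, and was too rare for the test.

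A small number of nuclei carried much Adarb2, a gene of caudal ganglionic eminence interneurons such as Vip and Lamp5 cells. At least 10 Adarb2 UMIs were held by 2 and 2 WT and 1 and 3 KI Sst nuclei, 8 in all. One nucleus held 405 of 477 Adarb2 UMIs in WT replicate 1, and one held 479 of 512 in WT replicate 2. Adarb2 was detected in 16.7% to 38.5% of Sst nuclei per library, these nuclei included. The fits were repeated without all 8.

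Markers of other cell types were also counted in the Sst nuclei. Over the 13 oligodendrocyte markers, leaving out 3 that belong to the rule, the summed level was 317 to 380 CPM in WT and 376 to 432 CPM in KI. Over 12 astrocyte markers, leaving out 2 in the rule, it was 245 to 366 CPM in WT and 499 to 671 CPM in KI. These do not overlap, and Gpc5 made up much of the KI sum. Over 17 excitatory markers it was 1216 to 1358 CPM in WT and 981 to 1002 CPM in KI, and Slc17a7 was detected in 51 nuclei, with 2 or more UMIs in 7. Over 13 markers of Vip and other caudal interneurons, leaving out Vip itself, it was 1650 and 2040 CPM for WT against 271 and 313 CPM for KI. Adarb2 made up most of the WT sums (1353 and 1744 CPM) and less of the KI sums (86.8 and 155 CPM). The vascular markers summed to at most 19.9 CPM, with 4 of 9 at 0 in every library.

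The first comparison asked whether the share of Sst nuclei differed between genotypes. Sst nuclei made up 5.69% (exact binomial 95% interval 4.21 to 7.50) and 5.65% (3.96 to 7.76) of GABAergic nuclei in WT. They made up 7.01% (5.28 to 9.09) and 5.26% (3.90 to 6.91) in KI. The KI libraries lay on either side of the WT libraries. The means were 5.67% ± 0.0318 in WT and 6.13% ± 1.24 in KI (SD, n = 2 each), a difference of 0.465 points (two-sided exact permutation p = 1, where the smallest p that 2 against 2 libraries allow is 0.3333). The difference turned negative at -0.410 points without KI replicate 1. It was -0.585 points with at least 5 Sst UMIs and -0.763 points with nuclei thinned to 3000 UMIs (exact permutation p = 0.6667 and 0.3333), so no direction is given for the share. The thinning covered the 2963 GABAergic nuclei with at least 3000 UMIs and left out the rest. Thinned counts entered only the conditions on Sst and its rivals. The intervals cover counting error only. As a share of all retained nuclei, Sst nuclei made up 0.294% and 0.266% in WT and 0.414% and 0.353% in KI, and both KI values were above both WT values (exact permutation p = 0.3333).

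**Figure D2:**
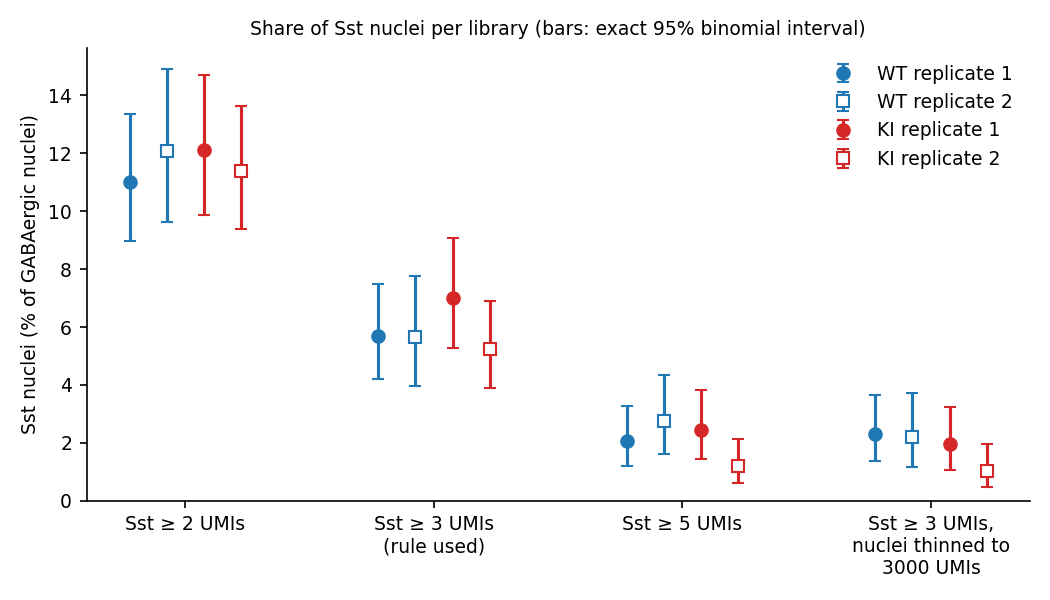
Share of Sst nuclei among GABAergic nuclei in each library, in percent, with exact binomial 95% intervals, for a threshold of 2, 3 (the rule used) or 5 Sst UMIs and for nuclei thinned to 3000 UMIs. At the rule used, the 4 intervals overlap, between 3.90% and 9.09%.

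Sst itself, which chose the nuclei, read 729 and 599 CPM for WT against 420 and 451 CPM for KI, and is given without a test. Gad1 read 255 and 320 CPM for WT against 214 and 164 CPM for KI, and Gad2 457 and 429 CPM for WT against 448 and 422 CPM for KI. The part of the greater depth of the KI nuclei in these values was not tested.

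The second comparison asked which genes differed between KI and WT in Sst nuclei. Counts were summed per library, and 6213 genes were tested with edgeR, with significance at an adjusted p below 0.05. The test called 61 genes (0.982% of those tested), of which 45 were higher in KI (0.724%) and 16 lower (0.258%). At an unadjusted p below 0.05, 6.66% were higher and 6.08% lower. The other GABAergic nuclei numbered 585 to 865 per library, so their sums were larger and 14926 genes could be tested, of which 151 were called (1.01%). Of the 61 genes, 60 kept their direction in every alternative that gave a value for them, and some genes were too rare to test in some alternatives. A fit without a library leaves 1 library in that genotype, which is then assumed to vary like the other genotype, so a call that held or was lost there is a value of that fit and no check between replicates. DESeq2 called 18 of the 61, and 4 were called after the sums were thinned to equal depth. Thinning left several log2 differences of genes that lost their call close to before, from 2.00 to 1.90 for Cntnap5b, from 1.47 to 1.52 for Cntn4 and from 0.94 to 0.93 for Grm7. With the replicate number as a block, the calls of Adamts18, Armcx5, Cntn3, Dalrd3, Esr1, Fgf1, Gm20713, Gm49164, Haghl, Malat1, Maml2, Mettl3, Ptprd, Sox5 and Tenm3 were lost among the genes named below. With DESeq2, those of 9630002D21Rik, Cntn3, Cntn4, Cntn6, Dalrd3, Fgf1, Gpc5, Hspa8, Kcnt2, Maml2, Ptprd, Rab3b, Sema3a and Sox5 had an adjusted p above 0.05. Others of the 61 received no adjusted p from DESeq2, so absence from this list does not mean that DESeq2 called the gene. With at least 5 Sst UMIs, which leaves fewer counts, the calls of Adarb2, Grin1, Grm7, Hdac9, Il1rapl2, Pde10a, Pex5l, Rab3b and Tenm3 were among those lost.

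Cyfip2, which carries the knock-in, read 145 and 143 CPM for WT against 119 and 127 CPM for KI, and the log2 difference was -0.09 (SE 0.23, adjusted p = 0.919). A count of the gene does not show the single-base change, so it does not check the genotype labels. None of the 17 tested members of the WAVE complex and its partners was called, against 0.982% of all genes, and their median log2 difference was -0.09, against 0.00 over all genes. Of the 17, 13 had a negative difference, and 1 was lower and 1 higher at an unadjusted p below 0.05. Their summed level was 1526 and 1505 CPM for WT against 1338 and 1221 CPM for KI. Such sums, above and below, are scaled to library totals. With that scaling the median log2 difference over all 6213 genes was -0.15. Both KI libraries were below both WT libraries for 1945 of these genes and above them for 851.

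Among genes of signaling between cells, the growth factor Nrg1, a ligand of ErbB receptors, rose most firmly. Nrg1 read 227 and 272 CPM for WT against 880 and 959 CPM for KI. Both KI libraries were more than 3 times as high as either WT library (log2 2.02, SE 0.19, adjusted p = 3.47e-06), and Nrg1 was the only gene called under all 18 alternatives. It was detected in 21 and 17 WT and 42 and 34 KI nuclei, and the highest nucleus held 13.3% of the KI UMIs. Its receptor gene Erbb4 read 1531 and 1264 CPM for WT against 1144 and 1714 CPM for KI, with overlapping groups (log2 0.16, SE 0.18, adjusted p = 0.782).

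The serotonin receptor gene Htr2c read 28.4 and 10.2 CPM for WT against 90.2 and 182 CPM for KI. Both KI libraries were higher (log2 2.85, SE 0.44, adjusted p = 0.00213), and the call held whichever library was left out, between 2.31 and 3.81, but was lost when nuclei with 2 Sst UMIs were included. Its UMIs came from 7 and 3 WT and 10 and 16 KI nuclei. The estrogen receptor gene Esr1 had 2 and 2 UMIs in WT and 28 and 15 in KI (log2 2.80, SE 0.59, adjusted p = 0.0195). The call was lost without WT replicate 1 (2.68), without KI replicate 1 (2.48) and with the replicate number as a block.

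Alkal2, a secreted ligand of the receptor kinase ALK, had the lowest fitted log2 difference among the called genes. It read 68.1 and 106 CPM for WT against 5.11 and 6.57 CPM for KI, in 13 and 7 WT nuclei but 2 and 2 KI nuclei. The KI libraries held 6 UMIs in all against 55 in WT (log2 -3.70, SE 0.50, adjusted p = 0.00054), and the call held whichever library was left out. The growth factor gene Fgf1 read 267 and 184 CPM for WT against 54.5 and 103 CPM for KI (log2 -1.43, SE 0.28, adjusted p = 0.013). This call was lost without WT replicate 1 (-1.11) and with the replicate number as a block.

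Among glutamate receptor genes, 2 were called, both higher in KI, against 0.724% of all genes. Grm7, which encodes a presynaptic metabotropic glutamate receptor, read 1480 and 1396 CPM for WT against 2281 and 2753 CPM for KI, and both KI libraries were higher (log2 0.94, SE 0.15, adjusted p = 0.00247). It was the only one of 9 tested metabotropic receptors called, and at an unadjusted p below 0.05, 3 of the 9 were lower and 1 higher, with a median of 0.00. Grin1, the obligatory NMDA receptor subunit, read 218 and 211 CPM for WT against 443 and 381 CPM for KI (log2 1.08, SE 0.20, adjusted p = 0.00803). Grin1 was the only one of 21 ionotropic receptor genes called (5 were higher at an unadjusted p below 0.05, against 6.66% of all genes), and its call was lost without WT replicate 1 (1.11) or WT replicate 2 (1.08). The AMPA subunit gene Gria1 read 4211 and 4155 CPM for WT against 3806 and 5198 CPM for KI (log2 0.24, adjusted p = 0.547), with overlapping groups.

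Synaptic adhesion genes held the most calls of any list. Of 35 tested, 5 rose and 1 fell, and 13 were higher and 2 lower at an unadjusted p below 0.05. Over all genes the shares were 0.724% risen and 0.258% fallen, and 6.66% higher and 6.08% lower at the unadjusted p. Their median log2 difference was 0.20 against 0.00 over all genes. Cntnap5b, a contactin-associated protein of the neurexin superfamily, read 105 and 109 CPM for WT against 296 and 490 CPM for KI (log2 2.00, SE 0.26, adjusted p = 0.000463). Cntn4, a contactin, read 241 and 480 CPM for WT against 819 and 983 CPM for KI (log2 1.47, SE 0.23, adjusted p = 0.00231). For both genes every KI library was above every WT library and the call held whichever library was left out, but that of Cntn4 was lost with DESeq2.

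The cadherin gene Cdh9 (log2 0.97), the teneurin gene Tenm3 (0.79) and the receptor phosphatase gene Ptprd (0.76) also rose. The call of Cdh9 was lost without WT replicate 2 (0.92). Those of Tenm3 and Ptprd were lost without WT replicate 1 (0.76 for both) and without WT replicate 2 (0.84 and 0.79). Il1rapl2, a synapse-organizing receptor, was the member that fell, with 868 and 896 CPM for WT against 461 and 425 CPM for KI (log2 -0.85, SE 0.17, adjusted p = 0.013). That call was lost without WT replicate 1 (-0.87) or WT replicate 2 (-0.81). The most counted member, Nrxn3, read 11312 and 10800 CPM for WT against 10744 and 11523 CPM for KI and was not called (adjusted p = 0.687).

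**Figure D3:**
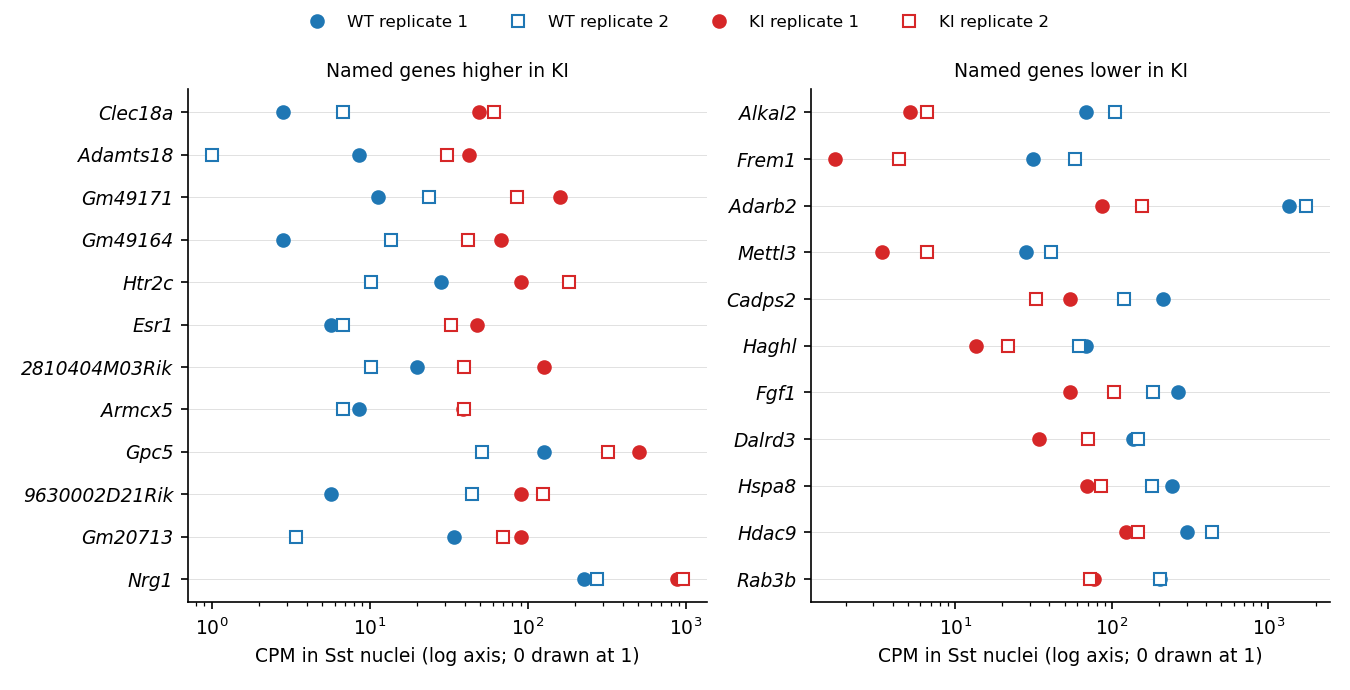
Levels in Sst nuclei by library of the genes with the largest called differences, in CPM on a log axis (0 drawn at 1), with WT and KI libraries in separate colors. The genes higher in KI and those lower in KI were named only where the genotypes did not overlap, and the plot shows the size of the gaps, for example Nrg1 at 227 and 272 CPM for WT against 880 and 959 CPM for KI.

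Gpc5, a glypican that is also high in astrocytes, read 128 and 51.1 CPM for WT against 504 and 324 CPM for KI (log2 2.32, SE 0.30, adjusted p = 0.000463), in 10 and 10 WT and 30 and 25 KI nuclei. It overlaps Gm20713 on the opposite strand of chromosome 14, which was also called (log2 2.14) but not without WT replicate 2 (1.40), and stood at 4.59 without WT replicate 1. The transcripts of the 2 genes may not be separable. Clec18a, a C-type lectin gene, had 1 and 2 UMIs in WT and 29 and 28 in KI, and stayed called whichever library was left out (log2 3.61, SE 0.59, adjusted p = 0.00338). By counts alone its KI level was 11.8 times that in WT (95% interval 3.83 to 58.7, counting error only). The metalloprotease gene Adamts18 had 3 and 0 UMIs in WT and 25 and 14 in KI, a ratio of 8.04 (2.56 to 40.7, log2 3.06, adjusted p = 0.0354). Its call was lost without WT replicate 2 (2.25), without KI replicate 1 (2.79) and with the replicate number as a block, and the fitted value was 7.09 without WT replicate 1, which leaves WT at 0 UMIs.

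Several of the largest rises were in noncoding or poorly known genes. Gm49171 (log2 2.99) stayed called whichever library was left out, with 11.3 and 23.8 CPM for WT against 160 and 85.4 CPM for KI. Gm49164 (2.93), a neighbor of it on chromosome 14, was lost without WT replicate 1 (2.15) or KI replicate 1 (2.51), and 9630002D21Rik (2.30) without WT replicate 1 (1.40), while it stood at 4.32 without WT replicate 2. For 2810404M03Rik (2.59), a single nucleus held 53 of the 74 UMIs of KI replicate 1, and the call was lost without that library (1.47). Armcx5 (2.43), which shares bases with Gprasp1, lost its call whichever library was left out (2.33 to 2.62).

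Among the genes that marked Sst nuclei, Sema3a was called. It read 34.0 and 27.2 CPM for WT against 98.7 and 107 CPM for KI, so both KI libraries were about 3 times as high (log2 1.86, SE 0.33, adjusted p = 0.00685), and the call held whichever library was left out. The other GABAergic nuclei, at a lower level, gave log2 1.67 for the same gene (adjusted p = 0.019). The other 11 marker genes were not called, among them Npy (log2 0.36, SE 0.23, adjusted p = 0.571). Of the 25 tested subtype markers and 11 medial ganglionic eminence factors none was called, against 0.982% of all genes, with medians of 0.07 and -0.32. Of the 11 factors, 9 had a negative difference and 3 were lower and 1 higher at an unadjusted p below 0.05, against 6.08% and 6.66% of all genes. The summed level of the factors was 3658 and 4005 CPM for WT against 2814 and 3016 CPM for KI.

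Rab3b, a small GTPase of synaptic and secretory vesicles, read 204 and 204 CPM for WT against 76.6 and 72.2 CPM for KI (log2 -1.31, SE 0.23, adjusted p = 0.00639). The call held whichever library was left out but was lost with DESeq2 and with at least 5 Sst UMIs (log2 -0.76, adjusted p = 0.536). Hspa8, a constitutive chaperone, read 244 and 181 CPM for WT against 69.8 and 85.4 CPM for KI (log2 -1.33, SE 0.25, adjusted p = 0.00803), lost without WT replicate 1 (-1.08).

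Hspa8 was the only call among 10 tested stress and chaperone genes, whose median was -0.69. At an unadjusted p below 0.05, 6 of them were lower and 1 higher, against 6.08% and 6.66% of all genes. Hsp90ab1 read 403 and 289 CPM for WT against 179 and 160 CPM for KI and missed the threshold (log2 -0.90, adjusted p = 0.052). The summed level of the list was 1622 and 1366 CPM for WT against 868 and 871 CPM for KI. The nuclear-encoded respiratory chain genes had no call among 49, against 0.982% of all genes, a median of -0.37 and 41 negative differences, where 3093 of all 6213 genes were negative. At an unadjusted p below 0.05, 9 of the 49 were lower and 0 higher. Their summed level was 3610 and 3082 CPM for WT against 2485 and 2469 CPM for KI.

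The makeup of the RNA moved with genotype too. The nuclear RNA Malat1 took 7.89% and 8.25% of the Sst-nucleus UMIs in WT and 12.5% and 11.1% in KI. In other GABAergic nuclei Malat1 rose likewise, from 85513 and 84843 CPM for WT to 129840 and 119391 CPM for KI (log2 0.65, adjusted p = 0.0152), so the shift was not limited to Sst nuclei. In Sst nuclei Malat1 was called (log2 0.69, SE 0.11, adjusted p = 0.00213), though not with the replicate number as a block. Mitochondrial transcripts took 0.0740% and 0.0671% in WT and 0.0449% and 0.0276% in KI. Genes that rose had a median span of 305 kb and genes that fell 123 kb, against 52.1 kb over all tested genes. Over 5 equal groups of genes by span, the median log2 difference ran from -0.12 in the shortest to 0.10 in the longest. The part of these values in the calls above was not tested. Apod, an oligodendrocyte transcript, averaged 0.298 and 0.200 UMIs per Sst nucleus in WT and 1.77 and 0.354 in KI, and 1.58 per excitatory nucleus in KI replicate 1.

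The remaining genes with large falls were less secure. Adarb2 read 1353 and 1744 CPM for WT against 86.8 and 155 CPM for KI (log2 -3.56, SE 0.23, adjusted p = 1.7e-08). A single nucleus in each WT library held most of these UMIs. The call was lost when nuclei with 10 or more Adarb2 UMIs were left out. That filter acts on the counts being tested, so the loss is no check of the call. All UMIs of the matrix gene Frem1 in WT, 11 and 17, came from 1 nucleus per library (log2 -3.66, adjusted p = 0.00803), while the KI libraries held 1 and 2. Its call was lost without WT replicate 1 (-4.06) or KI replicate 1 (-3.08), and the gene was too rare to test without WT replicate 2. No value without the 8 nuclei of high Adarb2 was had, since the gene was then too rare to test. Cadps2, which primes dense-core vesicles, read 213 and 119 CPM for WT against 54.5 and 32.8 CPM for KI (log2 -1.77, adjusted p = 0.00691). One nucleus per WT library held 48 of 75 and 29 of 35 UMIs. Its call was lost without WT replicate 1 (-1.27), and the difference turned to 0.43 without the nuclei with 10 or more Adarb2 UMIs. Cadps2 was the only call among 15 peptide processing genes, where 0.982% of all genes were called.

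Hdac9, a histone deacetylase gene, fell (log2 -1.32, adjusted p = 0.00582), but not without WT replicate 2 (-1.01) nor without the nuclei of high Adarb2. Mettl3, the RNA adenosine methyltransferase gene, had 10 and 12 UMIs in WT and 2 and 3 in KI (log2 -2.62, adjusted p = 0.0477). Its call was lost whichever library was left out (-3.07 to -2.19). Haghl (-1.75) and Dalrd3 (-1.34) were lost without WT replicate 1 (-1.66 and -1.39), WT replicate 2 (-1.80 and -1.26) or KI replicate 1 (-1.41 and -0.86).

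Of the genes called but not named by the rules above, some are given after their values were seen. Pde10a, a phosphodiesterase that degrades cyclic nucleotides, read 1129 and 1151 CPM for WT against 528 and 370 CPM for KI, and both KI libraries were lower (log2 -1.20, SE 0.18, adjusted p = 0.00207). Pex5l, which regulates HCN channel trafficking, read 357 and 330 CPM for WT against 890 and 657 CPM for KI (log2 1.31, SE 0.19, adjusted p = 0.00145). Both calls held whichever library was left out. The contactin gene Cntn6 (log2 1.21) was lost without WT replicate 1 (0.98), and Cntn3 (0.88) without WT replicate 1 (0.92) or WT replicate 2 (0.88). Sox5, a transcription factor gene, fell (-1.05) but was lost without WT replicate 1 (-1.18) or WT replicate 2 (-0.88).

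The lists of inhibitory and intrinsic signaling follow, to be read against the 0.982% of all genes called. The sodium-activated potassium channel gene Kcnt2 read 139 and 123 CPM for WT against 254 and 247 CPM for KI (log2 1.07, SE 0.22, adjusted p = 0.0165), the only call among 29 potassium and HCN channel genes. It was lost without WT replicate 1 (1.17) or WT replicate 2 (1.01). No gene was called among 11 GABA-A receptor subunits, 9 genes of GABA synthesis and transport, 10 sodium channel and 12 calcium channel genes, 3 acetylcholine receptors, 6 peptide receptors, 25 genes of vesicle release, 9 of extracellular matrix and 9 of sterol and lipid metabolism. Their medians ran from -0.24 in sterol and lipid genes to 0.32 in acetylcholine receptors. Of 37 activity-induced genes, 8 were abundant enough to test and none was called, with a median of -0.32. Of these 8, 7 had a negative difference, and 3 were lower and 0 higher at an unadjusted p below 0.05, where 3093 of all 6213 genes had a negative difference and 6.08% were lower and 6.66% higher. Homer1, one of them, read 147 and 119 CPM for WT against 54.5 and 105 CPM for KI (log2 -0.65, adjusted p = 0.357).

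**Figure D4:**
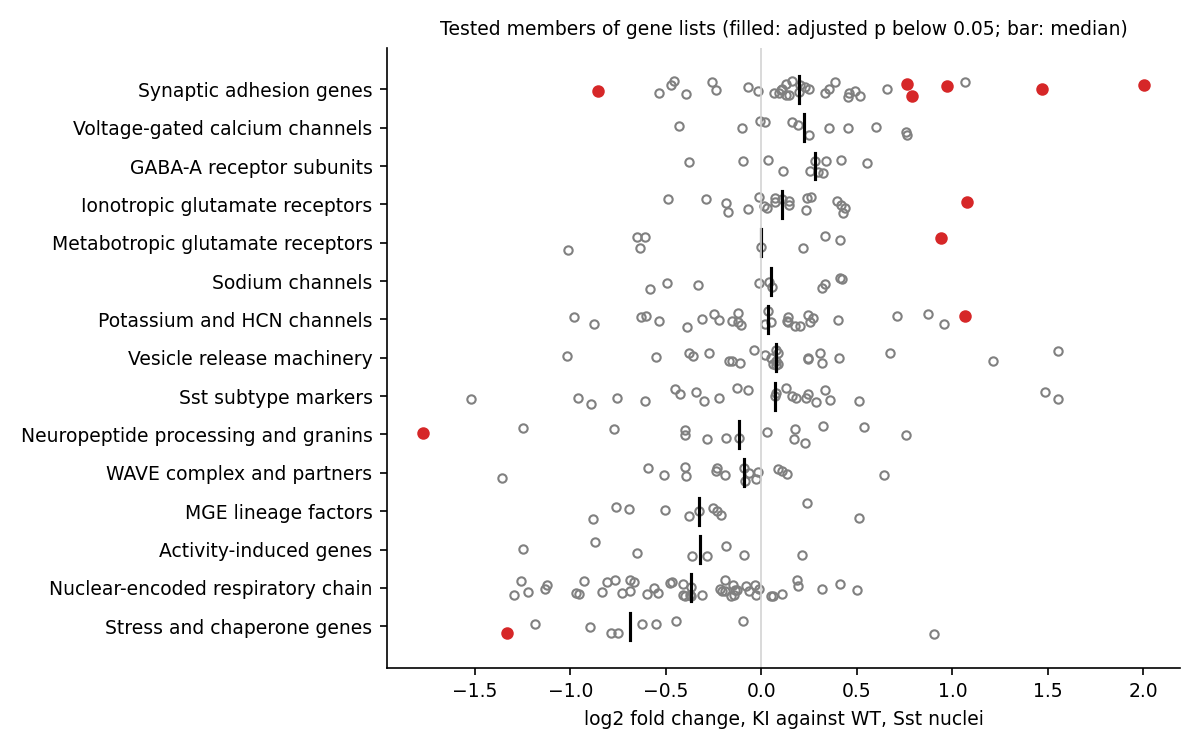
Log2 difference between KI and WT in Sst nuclei for the tested members of each gene list, with 1 point per gene and the median marked. The synaptic adhesion genes lie around a median of 0.20 and the stress and chaperone genes around -0.69.

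The third comparison asked whether the genotype difference in Sst nuclei differed from that in other GABAergic nuclei of the same libraries. The test of the difference itself called 12 of 6213 genes (0.193%), 9 in the direction of a more positive and 3 of a more negative difference in Sst nuclei. Htr2c differed most among the 9, with log2 2.85 in Sst nuclei and 0.20 in the others (difference 2.68, SE 0.43, adjusted p = 0.00722). In other GABAergic nuclei Htr2c read 191 and 146 CPM for WT against 178 and 184 CPM for KI, so KI replicate 2 reached that level in Sst nuclei, and KI replicate 1 and both WT libraries lay below it. The call was lost without KI replicate 2 (2.16), with at least 2 Sst UMIs (adjusted p = 0.805) and with at least 5 (log2 3.50, adjusted p = 0.0581).

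Cntnap5b gave log2 2.00 in Sst nuclei and 0.32 in the others (difference 1.67, SE 0.24, adjusted p = 0.00335), lost without KI replicate 2 (1.38) and with at least 5 Sst UMIs (1.73, adjusted p = 0.140). Nrg1 gave 2.02 and 0.88, and the latter was itself past the threshold (adjusted p = 0.019), so the gene rose in both sets and more in Sst nuclei (difference 1.17, SE 0.18, adjusted p = 0.00722). This difference was lost without KI replicate 1 (1.02), with doublets left out and with at least 5 Sst UMIs. Maml2, a Notch coactivator gene, read 48.2 and 68.1 CPM for WT against 126 and 114 CPM for KI (log2 1.20, a call lost without WT replicate 1 (0.96), without WT replicate 2 (1.47) and without the nuclei of high Adarb2), and 179 and 163 CPM for WT against 122 and 144 CPM for KI in other GABAergic nuclei (difference 1.496, SE 0.28, adjusted p = 0.0243). It was lost without WT replicate 1 (1.17), KI replicate 1 (1.30) or KI replicate 2 (1.67). Gpc5 gave 2.32 and 0.95 (difference 1.40, SE 0.27, adjusted p = 0.0261), lost without KI replicate 1 (1.05), and also among nuclei with no UMI of the 6 glial genes (adjusted p = 0.267).

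Adarb2, Frem1 and Cadps2 made up the negative side, with differences of -3.38, -3.90 and -1.68. In all 3 much of the WT count came from single nuclei, as given above. The difference of Adarb2 held whichever library was left out (-3.94 to -2.85), that of Frem1 was lost without KI replicate 1 (-3.14) or KI replicate 2 (-4.75), and that of Cadps2 without WT replicate 1 (-1.31), KI replicate 1 (-2.10) or KI replicate 2 (-1.41). Without the 8 nuclei of high Adarb2, and with such nuclei removed from the other GABAergic set too, 1 gene was called, Htr2c, and Adarb2 and Cadps2 turned to 0.20 and 0.10. This filter cut the GABAergic nuclei from 3101 to 2179, so most of what it removed lay in the comparison set. It also acts on the Adarb2 counts themselves. For Alkal2, Sema3a, Grin1 and Hspa8 the differences between sets were -1.65, 0.22, 0.35 and -0.17 and none passed (adjusted p = 0.508, 0.970, 0.766 and 0.951).

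**Figure D5:**
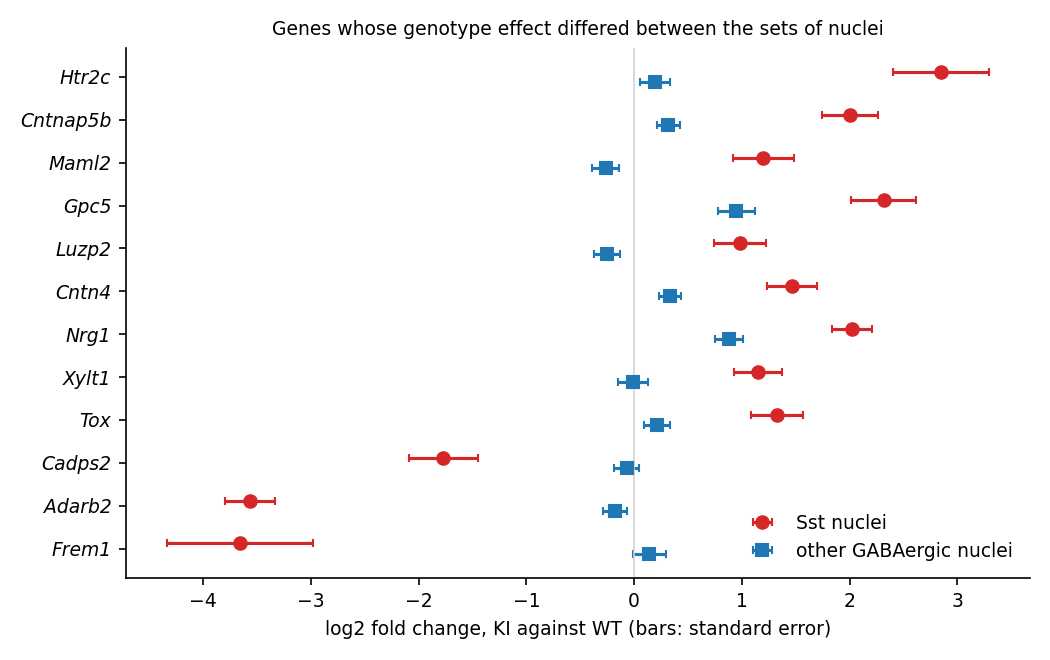
Log2 difference between KI and WT in Sst nuclei and in other GABAergic nuclei for the 12 genes whose difference between the sets passed the test, with bars of 1 SE. Htr2c lies at 2.85 in Sst nuclei and 0.20 in the others, and Adarb2 at -3.56 and -0.18.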

How the data were processed

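Nuclei were isolated from frozen hippocampi (2 libraries per genotype) and sequenced on the 10x Chromium platform by the authors, who deposited raw UMI counts per gene and barcode from Cell Ranger 7.0.1 (mm10 in the submitters' processing notes). No per-nucleus cell type annotation was used here. Barcodes were selected by the rule in the report, and counts were summed per library for Sst nuclei and for other GABAergic nuclei. Sums were tested with edgeR 4.0.16 (TMM, filterByExpr, quasi-likelihood, Benjamini-Hochberg adjustment, 2 libraries a genotype). The class-by-genotype test used both sets with a term for library. Doublets were scored with Scrublet (scanpy 1.11.5) and removed only in an alternative, above a score of 0.25. Shares were compared with exact permutation tests.

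The nuclei, gene lists and tests were chosen with earlier results of these data known. Genes named were those called with the largest differences (up to 12 each way, at least 10 CPM, genotypes not overlapping), list members called or most abundant, and 12 markers by ratio. A called gene and a marker that these rules name are not reported here. Samples with the same replicate number did not deviate together (r = 0.003), so they were not paired. The labels do not say that the libraries came from separate animals, so p-values measure the spread between libraries. WT libraries differed by 1.25 and KI libraries by 2.09 times the variance of counting noise. Gene positions came from GENCODE (GRCm38). Many named genes, among them Alkal2, Mettl3, Haghl, Dalrd3 and Grin1, overlap a gene on the other strand, and how strand entered the counting is not given in the sources used here.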

Additional observations from a re-analysis of the deposited data

Results flagged for a closer look

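The genotype difference was set apart from that in other GABAergic nuclei by a test of the difference itself for 12 genes (edgeR, log2 scale, Sst nuclei minus other GABAergic nuclei). The difference was more positive in Sst nuclei for 9 of them: Htr2c (2.68), Cntnap5b (1.67), Maml2 (1.496), Gpc5 (1.40), Luzp2 (1.26), Cntn4 (1.18), Nrg1 (1.17), Xylt1 (1.16) and Tox (1.13). The adjusted p ran from 0.00335 for Cntnap5b to 0.036 for Tox. It was more negative for the other 3: Frem1 (-3.90), Adarb2 (-3.38) and Cadps2 (-1.68). Luzp2 itself missed the threshold within Sst nuclei (log2 0.98, adjusted p = 0.0588), with 116 and 85.1 CPM for WT against 169 and 199 CPM for KI. Of the genes not covered above, Tox lost its call whichever library was left out (1.01 to 1.25), Luzp2 without KI replicate 1 (1.34) or KI replicate 2 (1.18), Xylt1 without WT replicate 2 (0.99), KI replicate 1 (1.19) or KI replicate 2 (1.14), and Cntn4 without WT replicate 1 (0.78), KI replicate 1 (1.25) or KI replicate 2 (1.12).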

How the results depend on the processing

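The 61 genes called between genotypes became 137 without a filter on low counts, 18 with DESeq2, 11 with at least 5 Sst UMIs, 4 with sums thinned to equal depth, and 37 to 286 when 1 library was left out (37 without WT replicate 1, 46 without WT replicate 2, 163 without KI replicate 1 and 286 without KI replicate 2). The other settings gave 41 to 91, and edgeR with its legacy option off, added after seeing the data, gave 74 (the legacy fit planned as an alternative is the default used). Scaling by library totals gave 40 higher and 51 lower, with the median of all genes at -0.15. All 18 genes called with DESeq2 and all 4 called after thinning were among the 61, and 42 of the 61 were called with doublets left out. The cause of these changes was not tested, but thinning and the stricter Sst threshold leave fewer counts.

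Replicate numbers did not pair the samples (r = 0.003). With the replicate block, 41 genes were called, 39 of them among the 61.

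The class-by-genotype count of 12 became 28 without a filter on low counts, 2 with at least 5 Sst UMIs, 1 without the nuclei of 10 or more Adarb2 UMIs (added after seeing the data), and 5 to 30 when 1 library was left out (17 without WT replicate 1, 30 without WT replicate 2, 6 without KI replicate 1, 5 without KI replicate 2). The share difference of 0.465 points turned to -0.585 with at least 5 Sst UMIs and -0.763 thinned to 3000 UMIs, and ran from -0.410 to 1.34 when 1 library was left out.

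Without the nuclei of high Adarb2, Cadps2 turned to 0.43 (class by genotype 0.10) and Adarb2, whose own counts set that filter, to 0.20 (class by genotype). Among genes that were not called, Reln turned to 0.030 with at least 2 Sst UMIs, 0.29 with at least 5, 0.008 without WT replicate 1 and 0.18 without KI replicate 2 (-0.36 to 0.18 over libraries left out). Lhx6 turned to 0.16 with no glial UMI and 0.23 without KI replicate 1 (-0.70 to 0.23 over libraries left out), and Dlx6os1 to 0.35 with at least 5 Sst UMIs. With 35 to 52 nuclei a library, genes of low count such as Cort could not be tested.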
